A study of Canis lupus familiaris with 10 samples.

Results

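The genes described are 9 members of the B-cell identity and antigen receptor group, namely CD79A, CD79B, MS4A1, PAX5, CD22, BLK, CR2, BANK1 and FCRLA. They were chosen by symbol, and all 9 were found among the 23266 gene symbols of the table. They were measured by 3′ RNA-Seq (QuantSeq 3′) in formalin-fixed, paraffin-embedded (FFPE) canine cutaneous histiocytoma (CCH). CCH is made up of cells of the Langerhans lineage and can disappear on its own while lymphocytes enter it. The early group held 5 tumors of histological group 1 from French Bulldogs, a Goldendoodle, a Terrier and a Boxer, aged 0.5 to 5 years in the 4 dogs with an age given. The late group held 5 tumors of histological group 3, labeled as rich in lymphocytes, from a Rottweiler, a Beagle, a Pug, a Bullterrier and a Jack Russell Terrier aged 1.5 to 9 years. The tumors came from privately owned dogs, the labels give no treatment, and tissue beside the tumor was removed according to the study.

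B cells recognize antigen with a membrane immunoglobulin that cannot signal alone. CD79A and CD79B are the paired chains that carry the signal into the cell, the kinases BLK, LYN, SYK and BTK pass it on, and BANK1 is a scaffold of the same cascade. CR2 is the complement receptor that lowers the threshold for activation and is also carried by follicular dendritic cells, whereas CD22 binds sialic acid and dampens the signal. MS4A1 encodes the surface protein CD20, PAX5 is the transcription factor that keeps B cells committed to their lineage, and FCRLA is an intracellular Fc receptor-like protein of B cells. MS4A1 and PAX5 are switched off when B cells become plasma cells.

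Values are normalized read counts, that is, reads of a gene divided by the size factor of the library. QuantSeq 3′ reads 1 fragment per transcript, so that a value does not grow with gene length, although it depends on how well the 3′ end of a gene is annotated. The libraries held 2973125 to 4439709 reads assigned to genes, and 3 reads, taken as the limit that a count of 0 allows, corresponded to a value of 2.36 to 3.22. This limit covers counting error only. Libraries are numbered within a stage to name them, since the table does not link them to single dogs. DV200, the percentage of RNA left in longer fragments, was 64.5 to 71.2% in early and 71.2 to 75.8% in late samples (exact two-sided permutation p = 0.0238), and its part in the results was not tested. Each RNA extraction batch held samples of only 1 stage, and the effects of extraction and stage cannot be told apart. In bulk tissue, fewer cells of a type and less RNA per cell cannot be told apart either.

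The first comparison asked how the members differed between late and early CCH. Late values of CD79A, CD79B and MS4A1 all lay above the early values. CR2, BLK, PAX5 and FCRLA had higher late means, but their stages overlapped. CD22 and BANK1 were detected in every library of both stages. The mean of CD22 lay above that of 90.6% of the genes tested in early and 89.7% in late CCH. For BANK1 these shares were 62.5% and 51.2%. A gene was called where limma gave a p of at most 0.05 after Benjamini-Yekutieli (BY) adjustment and the log2 fold change (log2FC) was 1 or more in either direction. Of the 7 members that passed the filter on low values 0 were called, against 2.17% of all 12397 genes tested (1.06% higher and 1.11% lower in late CCH). Their log2FC was positive in 5 and negative in 2, with a median of 2.93 against 0.00 for all genes tested. This median is a description only, because the filter favored a positive log2FC for CD79B, MS4A1 and CR2. Without adjustment, 5 of the 7 had a limma p of at most 0.05, as did 30.9% of all genes tested. With the same BY threshold, edgeR called 0 of the 7 (4 without adjustment) and 1.43% of all genes, 0.653% higher and 0.774% lower. DESeq2 called CD79A, CD79B and MS4A1 higher, and 6.53% of all genes, 3.86% higher and 2.67% lower. With Benjamini-Hochberg (BH) in place of BY, limma called CD79A, CD79B, MS4A1 and CR2, all higher in late CCH, as it called 9.04% of all genes, 5.53% higher and 3.52% lower.

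**Figure D1:**
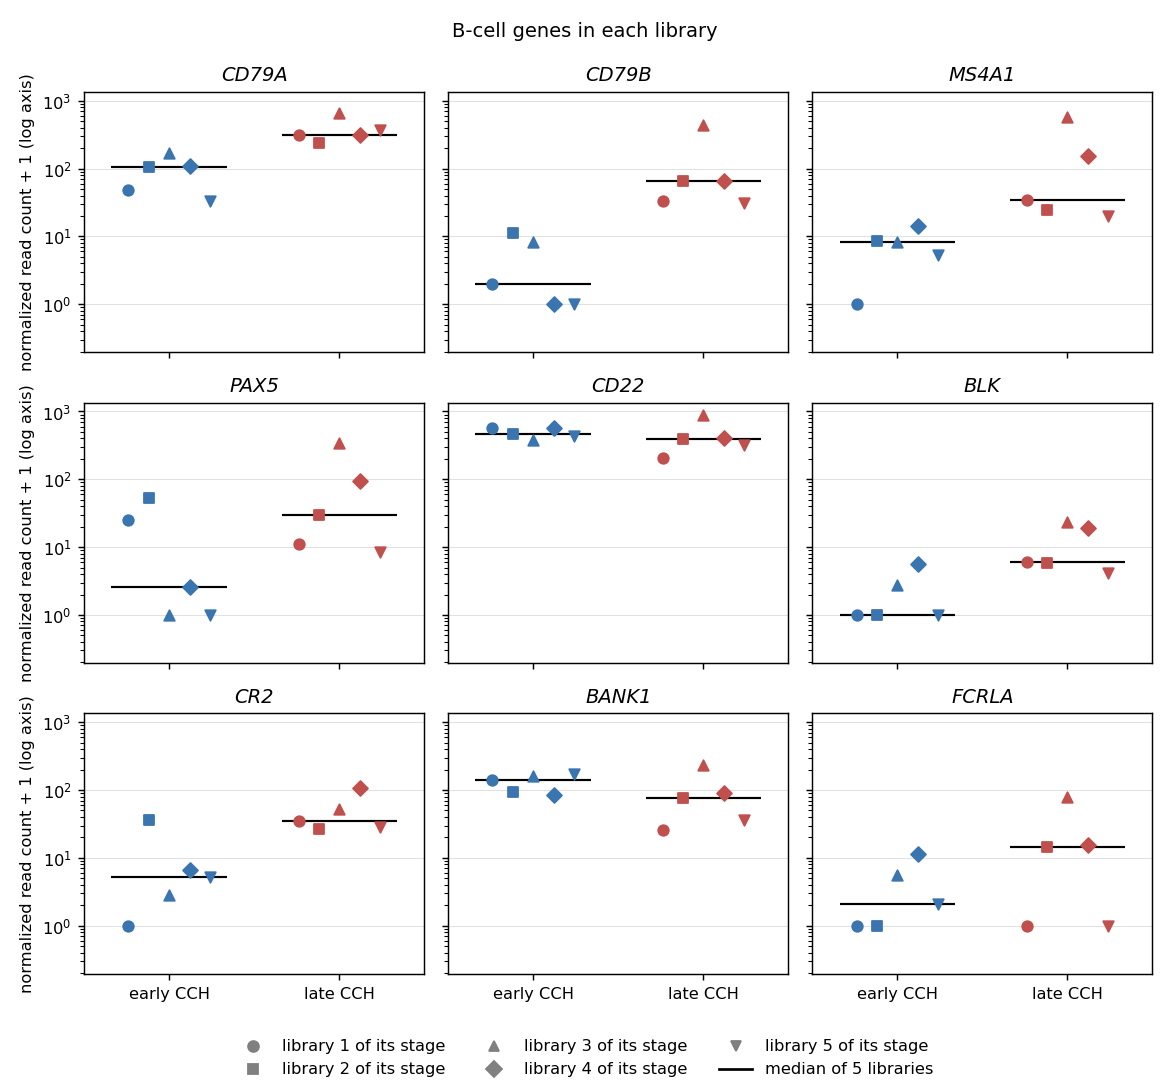
Normalized read count plus 1 (log axis) of the 9 B-cell genes in the 5 early (blue) and 5 late (red) libraries, with the shape of a point naming the library within its stage and the black line giving the median. CD79A, CD79B and MS4A1 have every late point above every early point, and late library 3 is the highest point for each gene except CR2. CD22 and BANK1 have reads in every library of both stages.

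Of the receptor chains, CD79A had values of 47.6, 103, 169, 108 and 32.2 in early libraries 1 to 5 and of 312, 236, 656, 309 and 367 in late libraries 1 to 5. The lowest late value, in library 2, exceeded the highest early value, in library 3. CD79A was therefore detected in every tumor, and its mean was 92.0 ± 54.5 in early and 376 ± 163 in late CCH (SD, n = 5 each). The log2FC of CD79A, computed from log2(value + 1) as late minus early, was 2.16 ± 0.41 (SE), just outside the threshold with BY (adjusted p = 0.0608, limma) and inside it with BH (adjusted p = 0.00608, limma). Without early library 3 it was 2.44 and passed with BY (adjusted p = 0.0341, limma). This was the only 1 of the 10 fits without 1 library to pass, with BY-adjusted p up to 0.174 (limma).

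CD79B, its partner chain, was at or near 0 in early CCH, with 0.952, 10.2, 7.24, 0 and 0, and had 31.8, 64.7, 434, 65.4 and 30.4 in late CCH. The early libraries held 20 CD79B reads together and the late libraries 641. The groups did not overlap, and late library 3 stood far above the other late libraries. CD79B had the largest log2FC of the 7 members tested, 4.67 ± 0.88 (SE, BY-adjusted p = 0.0562 and BH-adjusted p = 0.00562, limma). Without early library 2 it was 5.17 and passed with BY (adjusted p = 0.0388, limma). Only this 1 of the 10 fits without 1 library passed, and the BY-adjusted p reached 0.18 (limma). The log2FC depends on the pseudocount here, because the early values lie close to the limit of 3 reads. CD79A reads therefore outnumbered those of CD79B in every library, by 10.1 to 50-fold in the 3 early libraries with a CD79B read and by 1.51 to 12.1-fold in late CCH.

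MS4A1 had 0, 7.44, 7.24, 13.4 and 4.29 in early and 33.8, 23.8, 576, 150.3 and 18.9 in late CCH. Again no late value reached down to the early ones, but the late tumors spanned a wide range, with library 3 highest and library 5 lowest. The log2FC was 3.62 ± 0.95 (SE, BY-adjusted p = 0.24 and BH-adjusted p = 0.024, limma). Without late library 3 the late mean was 56.7 in place of 161 and the log2FC 2.85 (BY-adjusted p = 0.405, limma). Every late value above every early value, as for CD79A, CD79B and MS4A1, was found in 5.91% of all genes tested, the opposite in 6.05%, and either in 12%. CD79B, MS4A1 and CR2 passed the filter mainly through their late values, so that a difference in this direction was favored by the filter.

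PAX5 split both stages. It had 23.8, 52.1, 0, 1.58 and 0 in early and 9.94, 28.5, 339, 94.1 and 7.34 in late CCH. Early libraries 1 and 2 exceeded late libraries 1 and 5, and 2 late libraries exceeded every early one. The log2FC of 2.93 ± 1.29 (SE) did not pass with either adjustment (BY-adjusted p = 1 and BH-adjusted p = 0.142, limma). Without late library 3 the mean of late CCH was 35.0 in place of 95.8.

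CR2 had 0, 35.4, 1.81, 5.51 and 4.29 in early and 33.8, 25.7, 51.3, 105 and 27.3 in late CCH. A single early tumor, library 2, reached the late range, and the highest late value was that of library 4. The log2FC was 3.07 ± 0.81 (SE, BY-adjusted p = 0.244 and BH-adjusted p = 0.0244, limma). Without early library 2 it was 3.78 and passed the BY threshold (adjusted p = 0.0454, limma). No other of the 10 fits without 1 library passed, and the BY-adjusted p reached 0.708 (limma). In early library 2, CXCL13, the chemokine that draws B cells into follicles, stood at 1586, while the other early libraries had 7.62 to 150.3, and PAX5 and CD79B also had their highest early values there. CD79A, MS4A1 and BANK1 did not, and BLK and FCRLA were at 0 in that library.

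BLK, a Src family kinase of B cells, and FCRLA had too few reads for the filter. BLK had 0, 0, 1.81, 4.73 and 0 in early and 4.97, 4.76, 22.3, 18.4 and 3.15 in late CCH, from 8 and 54 reads. Late libraries were higher than every early library in 4 of 5 cases (log2 difference 2.39, exact two-sided permutation p = 0.0159, unadjusted). In limma without the filter, the BY-adjusted p of BLK was 0.704. FCRLA had 0, 0, 4.52, 10.2 and 1.07 in early and 0, 13.3, 77.5, 14.3 and 0 in late CCH. It was thus not detected in 2 libraries of each stage, and the stages did not differ beyond their spread (log2 difference 1.41, exact two-sided permutation p = 0.317).

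CD22 and BANK1 went against the label of the group, since both were present in early tumors in which CD79B, MS4A1 and BLK were near 0. CD22 had 564, 457, 375, 576 and 432 in early and 203, 393, 899.7, 401 and 318 in late CCH. Its early mean of 480.4 ± 86.8 (SD, n = 5) lay above that of 90.6% of the genes tested, and its mean was the highest of the members in both stages. In late libraries 1 and 5, however, CD79A was higher than CD22, with 312 and 367. The log2FC was -0.28 with a 95% CI from -0.95 to 0.40 (BY-adjusted p = 1 and BH-adjusted p = 0.592, limma). BANK1 had 141, 91.2, 162, 83.5 and 174 in early and 24.9, 75.2, 231, 90.0 and 35.7 in late CCH, a log2FC of -0.87 with a 95% CI from -1.95 to 0.20 (BY-adjusted p = 1 and BH-adjusted p = 0.257, limma). The interval of BANK1 includes a decrease by more than the threshold of 1. For both genes late library 3 was the highest of all 10 libraries. Without it the log2FC was -0.58 for CD22 and -1.31 for BANK1 (unadjusted p = 0.0237 and 0.00591, BY-adjusted p = 1 and 0.436, limma). These values are a description only, because the library was chosen for its high values of both genes. Leaving out the highest late library lowers the late mean by construction. In the other fits without 1 library, the unadjusted p was 0.303 to 0.884 for CD22 and 0.0813 to 0.273 for BANK1 (limma).

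**Figure D2:**
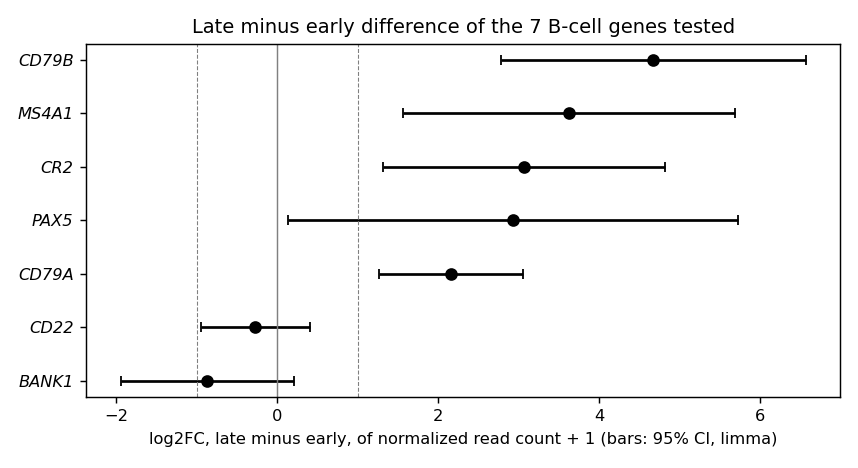
Log2FC (late minus early, log2 of normalized read count plus 1) of the 7 B-cell genes that passed the filter, with 95% confidence intervals from limma on 5 early and 5 late libraries, and dashed lines at the threshold of 1 in either direction. The point estimates run from 4.67 for CD79B to -0.87 for BANK1, and the intervals of CD22 and BANK1 include 0.

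The members also stood in different proportions to each other in the 2 stages. The differences of their log2 values within each library are given as a description, with no test, since the pairs were looked at with the values of the single genes known. CD79A minus CD22 was -2.58 ± 1.06 in early and -0.15 ± 0.55 in late CCH on the log2 scale (SD, n = 5 each). For CD79A, CD79B and MS4A1, each set against CD22 and against BANK1, the difference in 5 of 5 late libraries lay above that of every early library. The shift between the stage means ran from 2.44 for CD79A minus CD22 to 5.55 for CD79B minus BANK1. For CR2 minus CD22, CR2 minus BANK1 and CD79B minus CD79A the stages overlapped, with 3 of 5 late libraries above every early one, and for PAX5 minus CD22 and PAX5 minus BANK1 with 2 of 5.

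The late tumors were not alike in which members they expressed. In late library 3 the values of CD79A, MS4A1, CD79B and PAX5 were of a similar order, and CD79A exceeded MS4A1 by 1.14-fold. In late library 4 this ratio was 2.05. In late libraries 1, 2 and 5 it was 9.24, 9.92 and 19.4, values also seen in early libraries 2 to 5 (7.5 to 23.4). CD79A was as high in late libraries 1 and 5 as in library 4, whereas MS4A1, PAX5 and FCRLA were low or absent there. Relative to the median of the other 4 late libraries, library 3 was 20.01-fold higher for MS4A1, 17.6-fold for PAX5, 11.6-fold for FCRLA, 8.99-fold for CD79B and 4.58-fold for BLK. For BANK1, CD22, CD79A and CR2 the factors were 4.18, 2.53, 2.11 and 1.68. Without this library 6 members passed the filter and 0 were called by limma with BY, against 1.88% of the 12190 genes tested. All 6 had an unadjusted limma p of at most 0.05, as did 30.2% of those genes, with a higher late mean in 4 and a lower one in CD22 and BANK1. This count is a description only, because the library was chosen for its high values of the members. In the other fits without 1 library, 4 or 5 members had such a p.

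**Figure D3:**
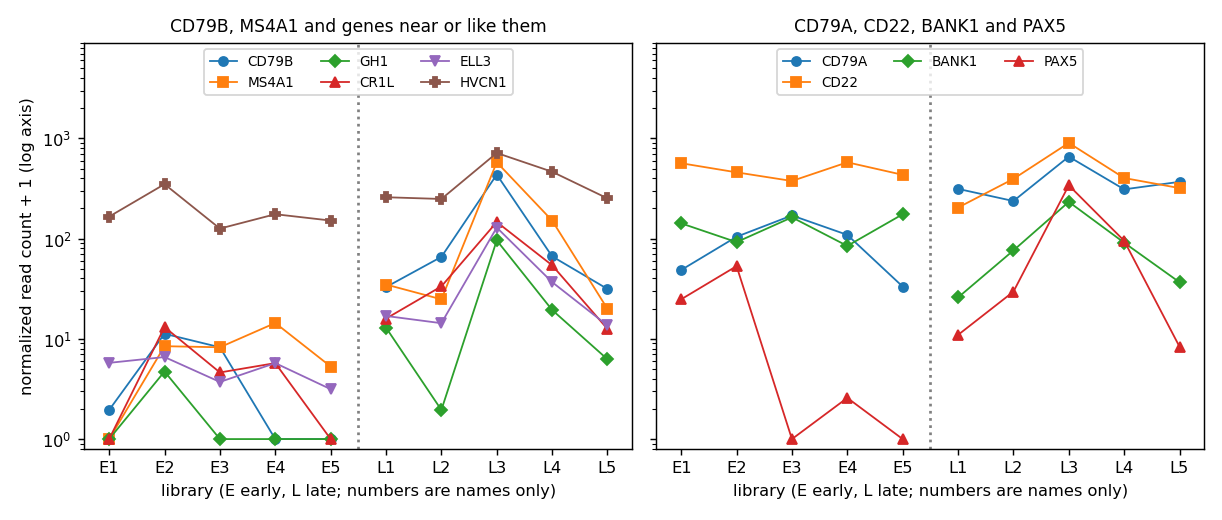
Normalized read count plus 1 (log axis) in each early (E) and late (L) library, with lines that join the points of a gene within a stage and imply no order. Left, CD79B and MS4A1 with the neighboring gene GH1 and with CR1L, ELL3 and HVCN1, all with their peak in late library 3. CR1L, ELL3 and HVCN1 had the highest correlation with the mean of the members tested before the stage means were taken out. Right, CD79A, CD22, BANK1 and PAX5, of which CD79A, CD22 and BANK1 have reads in every early library.

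Beside the members, 17 T-cell genes were examined. Their summed value was 109 to 3321 in early and 5024 to 8272 in late CCH, all 16 genes tested had a positive log2FC with a median of 3.18, and 1 of them was called with BY and 15 with BH, against 2.17% and 9.04% of all genes tested. The gene that passed with BY was CD6, a costimulatory receptor of T cells, with 13.9 ± 10.5 in early and 156 ± 19.6 in late CCH (SD, n = 5 each, log2FC 3.85, adjusted p = 0.0226, limma). LAT, an adaptor of the T-cell receptor, was near 0 in both stages, with 0 reads in early and 5 in late CCH. The part of T cells in the values of the 9 members was not tested. Late library 3, in which most B-cell members peaked, was not the highest for the signaling chain CD3E, with 708 against 686 to 1015 in the other late libraries. MS4A1 reached 0.81 of the CD3E value there, and 0.02 to 0.17 in the other late libraries.

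The next question was whether other genes of the B-cell receptor cascade differed in the same direction. Of 28 such genes, 26 passed the filter. With BY, 1 was called higher and 0 lower, against 1.06% and 1.11% of all genes tested. With BH, 3 were called higher and 0 lower, against 5.53% and 3.52%. The median log2FC of the 26 was 0.19 against 0.00 for all genes tested. The gene called with BY was PIK3CD, the catalytic subunit of the phosphoinositide 3-kinase of leukocytes, which rose from 312 ± 49.8 to 641 ± 148 (SD, n = 5 each, log2FC 1.02, adjusted p = 0.0436, limma).

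The kinases SYK, LYN and BTK differed in direction from each other, and none of them passed the call rule. SYK, which binds the phosphorylated CD79 chains, had 425 ± 66.7 in early and 773 ± 136 in late CCH, with no overlap (log2FC 0.85, BY-adjusted p = 0.0621 and BH-adjusted p = 0.0062, limma), and stayed under the fold threshold. LYN, the Src family kinase that acts with CD22, had 673 ± 149 in early and 407 ± 47.6 in late CCH, with every late value below every early one (log2FC -0.70, BY-adjusted p = 0.16 and BH-adjusted p = 0.016, limma). BTK had 72.6 ± 21.7 and 43.7 ± 23.1 (log2FC -0.80, BY-adjusted p = 1, limma), and the adaptor BLNK had 93.2 ± 41.1 and 117 ± 53.2 (log2FC 0.34, BY-adjusted p = 1, limma). SYK, LYN, BTK and BLNK are also used by myeloid cells.

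Among 28 other surface and nuclear genes of mature B cells, 19 passed the filter. With BY 1 was called higher, against 1.06% of all genes tested. With BH 7 were called higher and 2 lower, against 5.53% and 3.52%. The median log2FC of the 19 was 0.47. EBF1, a transcription factor of early B-cell commitment that stromal cells also express, rose from 91.4 ± 28.4 to 231 ± 42.8 (SD, n = 5 each, log2FC 1.37, BY-adjusted p = 0.0391, limma). CXCR5, the receptor for CXCL13, had 0, 8.37, 3.62, 11.0 and 0 in early and 30.8, 13.3, 184, 49.1 and 5.25 in late CCH (log2FC 3.13, BY-adjusted p = 0.491 and BH-adjusted p = 0.0491, limma). As for MS4A1, the highest values were in late libraries 3 and 4 and the lowest late value in library 5. TNFRSF13C, the receptor for the survival factor BAFF, resembled CD22 in that it was high in early CCH, with 181 ± 77.3 against 242 ± 231 in late CCH (log2FC 0.10, BY-adjusted p = 1, limma). Late library 3 held 641, and without it the late mean was 143. CD37, a tetraspanin of B cells and other leukocytes, had 525 ± 103 and 630.1 ± 97.7 (log2FC 0.28, BY-adjusted p = 1, limma).

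**Figure D4:**
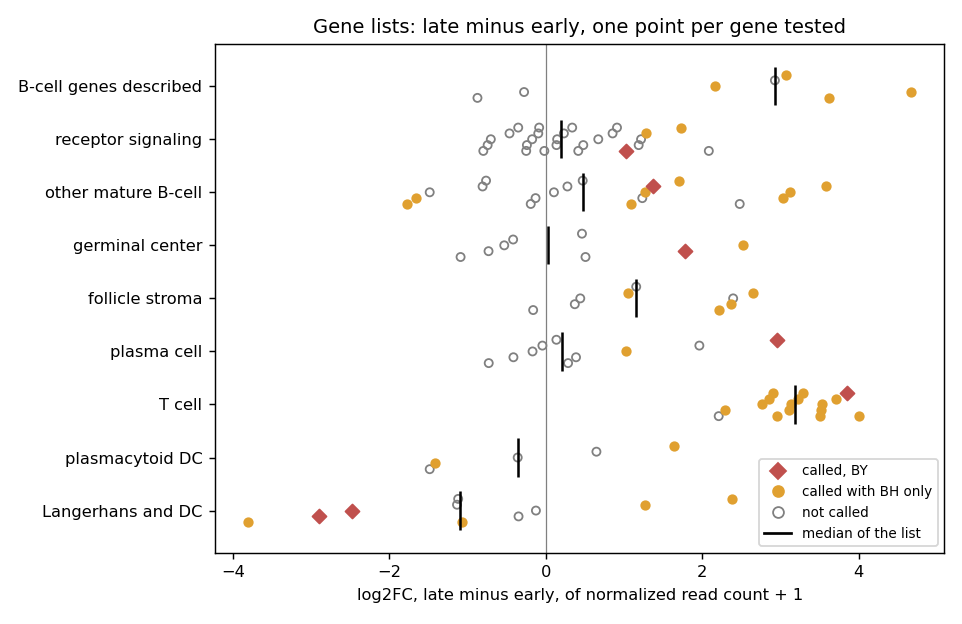
Log2FC (late minus early, log2 of normalized read count plus 1) of each gene tested in 9 lists, with red diamonds for genes called with BY, orange points for genes called with BH only, open points for genes not called and black lines for the median of a list. The medians run from 3.18 for the T-cell list to -1.09 for the Langerhans and dendritic cell list, and the 7 B-cell genes described lie between 4.67 and -0.87.

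Neighboring B-cell states and the follicle were examined next. Of 16 germinal center genes, 8 passed the filter, and with BY 1 was called higher, the DNA glycosylase NEIL1, which rose from 44.1 ± 12.8 to 153 ± 37.6 (SD, n = 5 each, log2FC 1.78, adjusted p = 0.0146, limma). Their median log2FC was 0.02, and BY called 1.06% of all genes tested higher. All 9 genes of follicular dendritic cells and follicle chemokines in the table passed the filter, and their median log2FC was 1.16. With BY, 0 were called by limma (5 had an unadjusted p of at most 0.05) and 0 by edgeR. With BH 4 were called and with DESeq2 1, against 9.04% and 6.53% of all genes tested. CXCL13 ranged from 7.62 to 1586 in early and from 19.9 to 2037 in late CCH (log2FC 2.40, BY-adjusted p = 1, limma), and CLU, a secreted chaperone that follicular dendritic and other cells express, had 1163 ± 1378 and 5053 ± 1577 (log2FC 2.66, BY-adjusted p = 0.0657 and BH-adjusted p = 0.00657, limma). The 2 lowest log2FC of this list were -0.16 for LTBR and 0.37 for MFGE8. LTBR had 135 ± 46.2 in early and 118 ± 30.1 in late CCH, and MFGE8 had 53.6 ± 26.5 and 62.6 ± 7.25.

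Of 13 plasma cell genes, 10 passed the filter, with a median log2FC of 0.21. With BY 1 was called higher and with BH 2, against 1.06% and 5.53% of all genes tested. The call with BY was SLAMF7, a receptor that T and NK cells carry as well, which rose from 45.5 ± 38.0 to 274 ± 83.8 (SD, n = 5 each, log2FC 2.95, adjusted p = 0.0495, limma). JCHAIN, the joining chain of secreted immunoglobulin, had 187 ± 83.7 in early and 279 ± 193 in late CCH (log2FC 0.39, BY-adjusted p = 1, limma). It was highest in late libraries 3 and 4, with 506 and 466, and had 88.1 to 199 in the other 3. MZB1, a chaperone of plasma cells, failed the filter with 0 to 6.66 in early CCH and 20.3 in late library 3 as its highest value.

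The genes whose pattern over the 10 libraries was most like that of the members were found by the Pearson correlation of log2(value + 1) with the mean of the 7 members tested, each centered on its own mean. Among 11111 genes with a symbol other than LOC and a number, the 8 most alike were CR1L (r = 0.96), ELL3 (0.96), HVCN1 (0.95), RALGPS2 (0.93), SLC9A8 (0.93), PBRM1 (0.93), S1PR1 (0.92) and RUBCN (0.91). CR1L is a complement receptor gene related to CR2, HVCN1 a proton channel of B cells and other leukocytes, and RALGPS2 and ELL3 stood on the lists of B-cell genes. CR1L had 0, 12.1, 3.62, 4.73 and 0 in early and 14.9, 32.3, 145, 53.2 and 11.5 in late CCH. After the stage mean had been taken from each value, the 8 most alike were FZD4 (0.97), FAM126B (0.96), CLEC7A (0.93), HVCN1 (0.92), VSIG10 (0.91), COCH (0.91), CR1L (0.90) and ELL3 (0.88), so that 3 genes stood in both lists. These coefficients describe 10 libraries that share stage, depth and a single library with high values, and they carry no test.

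Among the members themselves, the correlation with their mean over the 10 libraries was between 0.83 and 0.94 for CD79A, CD79B, MS4A1, PAX5 and CR2. It was 0.24 for CD22 and 0.00 for BANK1. With the stage means taken out, all 7 lay between 0.57 and 0.85, with 0.71 for CD22 and 0.63 for BANK1. A member is part of the mean it is set against, and late library 3 lies far above the rest for most members, both of which raise these values. The libraries with the highest early value still differed between members, with library 2 for CD79B, PAX5 and CR2, library 3 for CD79A, library 4 for MS4A1 and CD22 and library 5 for BANK1.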

How the data were processed

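Total RNA of 10 FFPE tumors, 5 of each stage, was sequenced with QuantSeq 3′. Per the labels and the study, the authors used Cutadapt, STAR (CanFam3.1, RefSeq), featureCounts in 2 rounds, the second with extended gene ends, and DESeq2. Versions are not given in the sources used here. The deposited unit is a signal, reads per gene divided by 1 size factor per library by the authors. In each of the 10 columns used, 100% of values above 0 were whole multiples of 1 read (tolerance 0.001), which gave the reads for edgeR and DESeq2. Another 11 columns match no sample and were not used.

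Genes that reached a value of 10 in 5 or more libraries were tested with limma (mean-variance trend, log2(value + 1), late minus early, no covariate) and BY adjustment over all genes tested, as the study adjusts. Gene values of 0 to 3 reads are near the detection limit. A fold change on this scale understates the change of low genes. For single genes, stage means of log2(value + 1) were compared with exact two-sided permutation tests over all assignments of libraries to stages. P-values measure the spread between tumors of different dogs. R 4.3.3, limma 3.58.1, edgeR 4.0.16, DESeq2 1.42.0 and SciPy 1.17.1 were used, and the 3 tests were tested on simulated counts. Alternatives were 2 pseudocounts, 2 filters, 2 scalings, BH, robust moderation, edgeR, DESeq2 and the omission of each library.

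The members and lists were chosen with earlier results of these data known. Genes named are the members, a fixed set of 13 genes (1 of them is not reported here), the calls with BY of each list (or its 2 highest and 2 lowest log2FC), and the 8 genes most like the members. Of the 9 symbols, 8 were found in the RefSeq table of a later dog assembly, CR2 not, and this table served only to find neighboring genes within 10000 bases. No sequence was used here.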

Additional observations from a re-analysis of the deposited data

Results flagged for a closer look

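In 44 groups of 5 libraries (22 genes, each in both stages), the top and bottom values were each set against the next value, as a share of the range over the 5 libraries, and 14 groups lay above 0.71, a limit that chance passes in about 1 of 20 groups of normally distributed values. Read counts of related genes in the same libraries are neither normal nor independent, and the rate for them was not tested. Late library 3 accounted for 9 of them, all as the highest library. Among the members these were CD79B with 434 (next 65.4), MS4A1 with 576 (next 150.3), PAX5 with 339 (next 94.1), CD22 with 899.7 (next 401) and FCRLA with 77.5 (next 14.3). Among the other genes they were CXCR5 with 184, TNFRSF13C with 641, BTK with 84.3 and MZB1 with 20.3.

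Early library 2 was far above the other early libraries for CR2 with 35.4 (next 5.51) and for CXCL13 with 1586 (next 150.3). Late library 4 had the highest late CXCL13 value, 2037 (next 593). BTK was highest in early library 5 with 111, and CD37 was lowest in early library 1 with 342.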

How the results depend on the processing

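No paired analysis was possible because no replicate number is attached to the columns and each tumor came from another dog. No member reversed its direction under any alternative run. Of 269 genes called, BH gave 1121, DESeq2 810 and edgeR 177, and leaving out 1 library gave 49 (without early library 5) to 260. Members called were 0, against 4 with BH, 3 with DESeq2, 1 with a pseudocount of 5 and 0 to 2 without 1 library. Of the 8 other lists, 7 distinct genes were called, against 42 with BH, 25 with DESeq2, 4 with edgeR and 0 to 8 without 1 library. PIK3CD, SLAMF7 and FLT3 were not called by edgeR (BY-adjusted p = 0.0543, 0.0753 and 0.0559, edgeR). BY is stricter than BH by construction, and the cause of the other shifts was not tested.

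CD79A passed with BH (log2FC 2.16), with DESeq2 (2.03), with a pseudocount of 5 (2.09) and without early library 3. CD79B passed with BH (4.67), with DESeq2 (5.09) and without early library 2. MS4A1 passed with BH (3.62) and DESeq2 (4.64), and CR2 with BH (3.07) and without early library 2. Without 1 library the log2FC was 1.85 to 2.44 for CD79A, 4.03 to 5.17 for CD79B, 2.85 to 4.07 for MS4A1 and 2.48 to 3.78 for CR2. PAX5 passed the filter in 5 of these 10 fits. The exact test of BLK had p-values from 0.0159 to 0.0317 over 13 alternatives. Scaling by column totals moved the share of calls that were higher in late CCH from 48.7% to 64.0% and the median log2FC of all genes to 0.08, with CD22 at -0.19 and BANK1 at -0.79. Values of at most 3 reads, seen for FCRLA and BLK and in early libraries for CD79B and MS4A1, are limited by depth. For MS4A1 this was early library 1 only, and the other early libraries had 4 to 17 reads.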

Other observations

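Genes of plasmacytoid dendritic cells, several of which B cells share, were split between the stages. Of 12 such genes, 7 were in the table and 5 were tested, with 0 called by limma with BY (3 had an unadjusted p of at most 0.05) and 0 by edgeR. With BH 1 was called higher and 1 lower, and DESeq2 called 1, against 9.04% and 6.53% of all genes tested. TCF4, a transcription factor of these cells, had 179 ± 107 in early and 527 ± 191 in late CCH (SD, n = 5 each, log2FC 1.64, BY-adjusted p = 0.0905, limma), and TLR9 had a log2FC of 0.65. PLD4 had 265 ± 79.9 in early and 117 ± 101 in late CCH (log2FC -1.41, BY-adjusted p = 0.327, limma), and BCL11A, a transcription factor of B cells and plasmacytoid dendritic cells, had 164 ± 62.7 and 76.8 ± 65.7 (log2FC -1.48, BY-adjusted p = 0.942, limma). Both had their highest late value in late library 3, as CD22 and BANK1 did. Langerhans and other dendritic cell genes were tested in 10 cases, of which 2 fell with BY, the receptors FLT3 (log2FC -2.89, adjusted p = 0.0434, limma) and FCER1A (log2FC -2.47, adjusted p = 0.0401, limma). BY called 1.11% of all genes tested lower. With BH 4 of the 10 were called lower and 2 higher, against 3.52% and 5.53% of all genes tested. The 2 called higher with BH were CCR7 (log2FC 2.38) and IRF8 (log2FC 1.27).

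GH1, the growth hormone gene, is a neighbor of CD79B in the later dog assembly. It had 0 reads in 4 early libraries and 4 in early library 2, and 12, 1, 98, 18 and 5 reads in late libraries 1 to 5 (exact two-sided permutation p = 0.0159, unadjusted). FFAR3, a neighbor of CD22, had 0 to 3 reads in early CCH and 0, 0, 28, 4 and 11 in late libraries 1 to 5 (exact two-sided permutation p = 0.206), and FCRLB, a neighbor of FCRLA, had 11 reads in late library 3 and 0 to 3 elsewhere. Of the other 5 neighbors, 4 did not peak with their member. RPS19, beside CD79A, was highest in early library 4, MAG, beside CD22, was highest in early library 2 with 54.9, ARHGEF1 had 0 reads in late library 3, and FFAR1 had 0 reads throughout. SCN4A, beside CD79B, had 1 read in all, in late library 3. Whether the reads of GH1, FFAR3 and FCRLB belong to transcripts of the neighboring members was not tested.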
